A study of Mus musculus with 3 samples.

Results

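Cytosolic ribosomal protein genes encode the proteins of the ribosome that translates nuclear mRNAs. Members were chosen by gene symbol, and 82 of the 31053 mouse genes counted in all 3 libraries matched: 31 of the small subunit, 48 of the large subunit and 3 of the stalk. The symbols were Rps or Rpl with a number and, for the stalk, Rplp0, Rplp1 and Rplp2. Pseudogene symbols ending in -ps were left out, and the rule does not reach some ribosomal protein genes with other names, such as Rpsa and Fau.

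Each ribosome holds a fixed set of these proteins, so their mRNAs are usually made in proportion. Most of them begin with a run of pyrimidines, the 5′ terminal oligopyrimidine (TOP) tract, through which mTORC1 controls their translation. Because the mRNAs are abundant, they take a large and variable share of the molecules counted in a cell.

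Droplet single-cell RNA sequencing of 3′ ends was done for 3 conditions, with 1 library each. Co-Mac was bone marrow of C57/BL6 mice grown for 7 days with murine GM-CSF at 200 U/ml and left untreated. VD-Mac was the same culture given the active form of vitamin D3, 1,25 dihydroxy-cholecalciferol (VD3), at 1e-06 M for 24 h. The hSTSG library held cells from human split-thickness skin taken out 14 days after it was placed under the skin of C57BL6/J wild-type mice, with 5 mice pooled. Its counts were assigned to mouse genes alone, and whether they include reads of human origin was not tested. Age of the mice was not given in the sources used here.

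Kept cells had at least 300 genes, under 100000 gene UMIs and under 10% mitochondrial UMIs. A UMI (unique molecular identifier) marks 1 captured molecule, and since each transcript is counted once at its 3′ end, levels of different genes are on 1 scale without regard to length. There were 7257 kept cells with 132574308 UMIs in Co-Mac, 8825 with 116461484 in VD-Mac and 2144 with 22646544 in hSTSG. Of all deposited barcodes, Co-Mac and VD-Mac shared 19, and each shared 7 with hSTSG. With 1 library per condition there was no replicate check and no test. All intervals are exact at 95% and cover counting error only.

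The labels of the cultures were read first from the vitamin D response. Cyp24a1, which breaks down active vitamin D and is a classical target of its receptor, had 1 UMI in Co-Mac, 36662 in VD-Mac and 0 in hSTSG. Its log2 ratio, VD-Mac over Co-Mac, was 15.35 (12.87 to 20.65). Vdr, the receptor, stood at 51.1 CPM (a gene's UMIs scaled to a fixed total per library) in Co-Mac, 135 in VD-Mac and 52.1 in hSTSG. Both genes were thus higher in the library labelled as treated. The macrophage markers Adgre1 and Csf1r were present in both cultures, Adgre1 at 37.6 and 51.0 CPM and Csf1r at 151 and 114 CPM in Co-Mac and VD-Mac, but many clusters were not macrophage-like, as described below.

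Ribosomal protein genes took 19.8% of all gene UMIs in Co-Mac (19.76% to 19.78%), 23.7% in VD-Mac (23.73% to 23.74%) and 13.3% in hSTSG (13.27% to 13.30%). VD-Mac was highest and hSTSG lowest. Of the 100 most abundant genes, 56 were members in Co-Mac, 62 in VD-Mac and 39 in hSTSG. The median cell had a share of 20.8% in Co-Mac (quartiles 15.4% and 25.5%), 24.4% in VD-Mac (19.9% and 28.0%) and 9.69% in hSTSG (3.89% and 15.996%). The quartile ranges of the cultures overlapped.

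The share was 1.201-fold higher in VD-Mac than in Co-Mac, a log2 ratio of 0.264 (0.263 to 0.265) and a difference of 3.97 percentage points. Small subunit genes made up 8.74% of UMIs in Co-Mac and 10.5% in VD-Mac. Large subunit genes made up 9.93% and 12.0%, and the stalk genes 1.09% and 1.26%. All 3 groups of members were higher in VD-Mac. The mitochondrial share of UMIs was 5.66% in Co-Mac, 6.23% in VD-Mac and 3.54% in hSTSG. With a limit of 5% mitochondrial UMIs per cell the ratio of member shares was 1.15. With the cells of each culture in 4 equal groups by UMIs, the shallowest had a member share of 21.49% in Co-Mac and 21.48% in VD-Mac. The groups between had 23.9% and 25.6%, then 19.9% and 25.3%, and the deepest 18.1% and 22.5%. The cultures were thus level in their shallowest groups, but the groups were cut within each culture and not matched for depth. The shallowest had a median of 3392 UMIs in Co-Mac and 1956 in VD-Mac, with 3.68% and 1.64% mitochondrial UMIs. The part of depth was not tested.

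Of the 82 members, 80 had at least 10 CPM in the higher culture, and the comparison of single members covers these. The log2 ratio, VD-Mac over Co-Mac, had a median of 0.29 over the 80 members and of -0.10 over all 7732 genes that passed the same minimum. It was above 0 for 68 members, beside 39.0% of all genes. Under each of the other scalings described below it was above 0 for 72 members. The median of the other genes was then -0.03 and -0.00, and the share of all genes above 0 is not given here. At least 1.2-fold higher were 49 members, beside 17.1% of all genes, and at least 1.2-fold lower were 3 (Rps27l, Rpl7l1 and Rpl3l), beside 32.4%. Under each of the other scalings 1 member was at least 1.2-fold lower, beside 2023 and 1857 of 7652 other genes. None was 2-fold higher or lower, beside 2.07% and 4.07% of all genes. The 1.2-fold limit lies close to the members' own median, so their count moves easily. With a limit of 5% mitochondrial UMIs per cell it was 25, and the share of all genes under that limit is not given here. The median was 0.31 for the small subunit (31 genes), 0.29 for the large subunit (46 genes) and 0.16 for the stalk (3 genes), and the medians of the subunits lay close together.

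**Figure D1:**
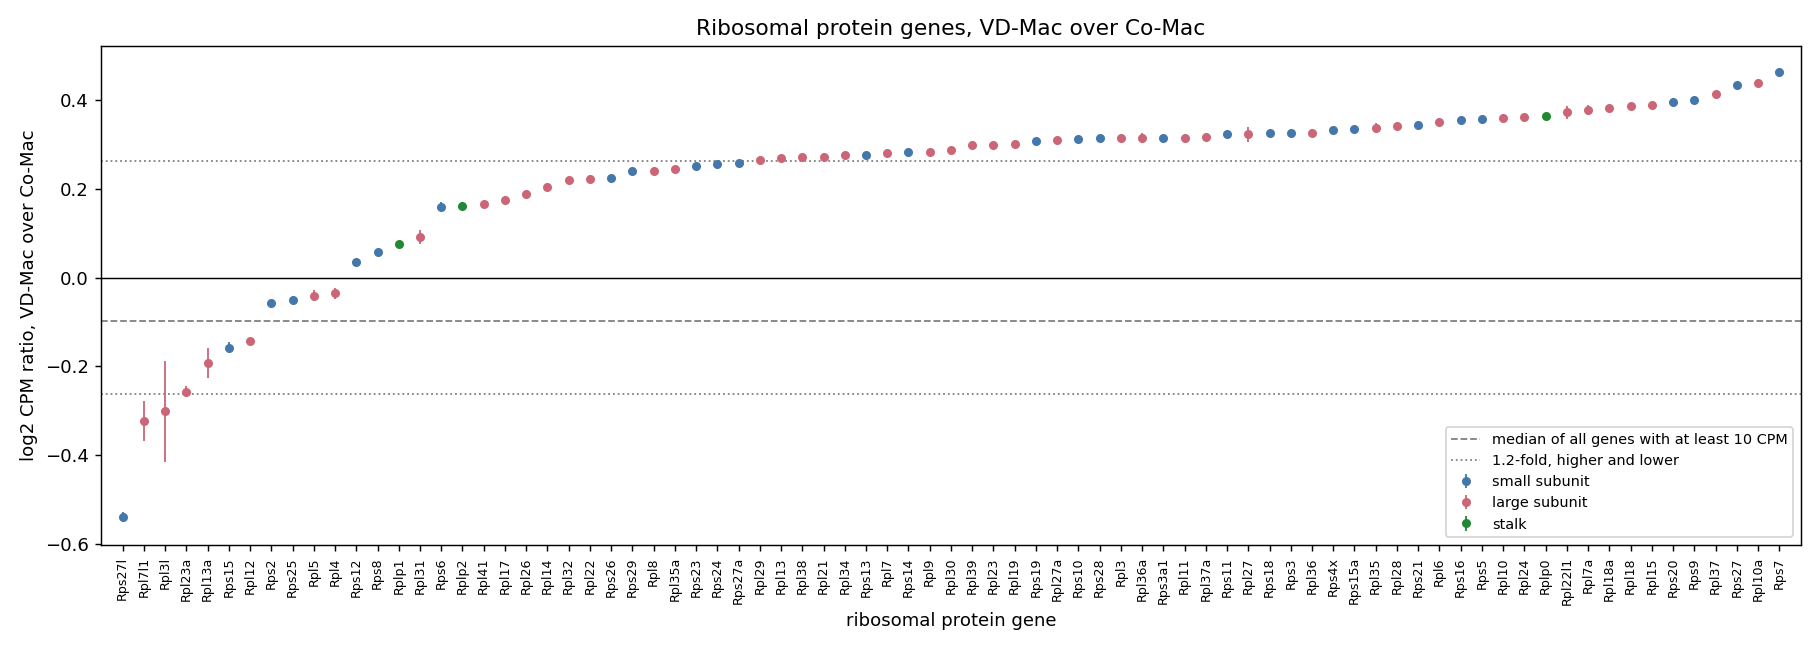
Log2 CPM ratio, VD-Mac over Co-Mac, of 79 of the 80 ribosomal protein genes with at least 10 CPM in a culture, in rising order, 1 point per gene with its exact 95% interval (counting error only), coloured by subunit. The points run from Rps27l to Rps7, and 68 lie above 0 (72 under other scalings), while the dashed median of all genes lies at -0.10.

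The highest ratio among members with at least 50 CPM was that of Rps7, a small subunit protein, at 2244 CPM in Co-Mac, 3097 in VD-Mac and 1301 in hSTSG. Its log2 ratio was 0.46 (0.457 to 0.471). Rpl10a followed at 1447, 1961 and 899 CPM in the same order, with 0.44 (0.430 to 0.447). Both genes were highest in VD-Mac and lowest in hSTSG. Rps27 stood at 1684, 2275 and 2488 CPM, with 0.43 (0.426 to 0.442). Rpl37 stood at 2452, 3266 and 2180 CPM, with 0.41 (0.407 to 0.420). Rps9 stood at 3111, 4105 and 2432 CPM, with 0.40 (0.394 to 0.406). Only Rps27 among these 5 was highest in hSTSG.

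Of the 80 members, 12 were lower in VD-Mac. The lowest ratio was that of Rps27l, a paralog of Rps27 known as a target of p53, at 1222 CPM in Co-Mac, 841 in VD-Mac and 419 in hSTSG, with a log2 ratio of -0.54 (-0.551 to -0.528). Rps27 and Rps27l, whose proteins are nearly alike, thus lay on opposite sides of 0. Rpl7l1, a relative of Rpl7, stood at 74.8, 59.8 and 41.5 CPM, with -0.32 (-0.367 to -0.279), though it was higher in VD-Mac in 4 of the 9 pairs of matched clusters described below. Rpl23a stood at 881, 737 and 1206 CPM, with -0.26 (-0.270 to -0.244). Rpl13a stood at 125, 109 and 289 CPM, with -0.19 (-0.225 to -0.159). Rpl23a and Rpl13a were highest in hSTSG, unlike Rps27l and Rpl7l1. Members below 0 also included Rpl3l, Rps15, Rpl12, Rps2, Rps25, Rpl5 and Rpl4. The last 4 had log2 ratios between -0.06 and -0.04 and turned above 0 when the members were left out of the total or median-of-ratios scaling was used.

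The stalk, which binds translation factors, was uneven. Rplp0, its base, stood at 4013 CPM in Co-Mac, 5171 in VD-Mac and 1816 in hSTSG, with a log2 ratio between the cultures of 0.37 (0.360 to 0.371). Rplp1 stood at 4817, 5075 and 3731 CPM, with 0.08 (0.070 to 0.080). Rplp2 stood at 2110, 2361 and 2494 CPM, with 0.16 (0.154 to 0.170). In hSTSG Rplp1 was the most abundant of the 3, whereas Rplp0 exceeded it in VD-Mac.

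Paralogs were less abundant than their parent genes in all 3 libraries. Rpl22l1 had 494 CPM in Co-Mac, 639 in VD-Mac and 375 in hSTSG, beside 1571, 1833 and 1084 for Rpl22, and the log2 ratios between the cultures were 0.37 and 0.22. Rpl7, beside Rpl7l1 above, stood at 1863, 2263 and 1253 CPM, with 0.28. Rpl22l1 and its parent were both higher in VD-Mac, whereas Rpl7l1 and Rpl7 lay on opposite sides of 0. Rpl3l, the form known from striated muscle, had 11.4, 9.22 and 1.501 CPM, beside 1543, 1918 and 856 for Rpl3. Rpl39l, known from testis, had 1.37, 0.962 and 7.51 CPM, beside 3250, 3998 and 2410 for Rpl39. Rpl10l, also known from testis, had 2 UMIs in Co-Mac, 2 in VD-Mac and 0 in hSTSG, beside 1637, 2102 and 1258 CPM for Rpl10. Rpl39l and Rpl10l were the members under 10 CPM in all 3 libraries. Reads of these genes and of their many processed pseudogenes can be alike, and 9 pseudogene rows with -ps names held 0.017% of UMIs in Co-Mac, 0.020% in VD-Mac and 0.013% in hSTSG. Levels of single members are therefore uncertain where the counting could split or drop shared reads.

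Cells of each library were clustered without the ribosomal protein genes, and clusters were named only where fixed markers allowed it. The library shares hid wide differences between clusters. In Co-Mac the pooled share ran from 14.1% in cluster 6 (Csf3r, Lst1, Mmp9), which was neutrophil-like, to 31.5% in cluster 10, an unnamed cluster of 67 cells. The macrophage-like cluster 3 (Rnf128, Igf1, Fn1, C1qa) was also at 14.1%. Cluster 0 (Il12b, Ccl5, Fscn1), with 1406 cells, was at 26.8%, and cluster 1 (Aldh1a2, Pou4f1, Nr4a3), with 1223 cells, at 24.4%. The neutrophil precursor-like cluster 4 (Prtn3, Elane) was at 20.6% and the dendritic cell-like cluster 9 (Itgae, Clec9a) at 22.8%. The other neutrophil-like cluster, 7, was at 18.8%, above the unnamed clusters 2 (17.1%) and 8 (16.9%). The unnamed clusters 0 and 1, the most numerous, were well above both named clusters at 14.1%.

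In VD-Mac the neutrophil-like cluster 5 (Mmp9, Fpr1, Csf3r) was at 16.5% and the macrophage-like cluster 3 (Ccl4, Fn1, Ms4a7) at 21.4%. Cluster 1 (Ccl5, Il12b), with 1584 cells, was at 28.6%, and cluster 0 (Pou4f1, Aldh1a2), with 1745 cells, at 25.5%. The lowest value, 13.7%, was in cluster 9 (Ngp, Ltf, Camp), 96 cells with granule genes of maturing neutrophils. It stayed unnamed because precursor markers led it while its neutrophil score was higher, and it held 1.09% of the VD-Mac cells.

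Some clusters of the cultures had almost no mitochondrial UMIs. Clusters 5 and 10 of Co-Mac held 623 cells (8.58%) with a mitochondrial share of 0.264% and a median of 3045 UMIs, and clusters 2 and 7 of VD-Mac held 1622 cells (18.4%) with 0.585% and a median of 1992. Their ribosomal protein shares were high, 25.5% and 28.2%. They held 1.63% and 3.37% of the UMIs, and without them, a setting chosen after the data were seen, the library shares were 19.7% and 23.6% and their ratio 1.199.

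In hSTSG the range was wider than in the cultures. Neutrophil-like cells (clusters 0 and 8, 516 cells) had a share of 2.28% (2.25% to 2.30%), with a median of 49 member UMIs per cell and 2329 UMIs in all. Their mitochondrial share was also low, at 0.785% beside 3.54% for the library, and its part in the low member share was not tested. Macrophage-like cells (clusters 1 and 4, 632 cells) had 11.1%, with 11.8% in cluster 1 (Mmp12, Gpnmb, Trem2) and 8.76% in cluster 4 (Cd163, Lyve1). Fibroblast-like cells (144) had 15.8% and T cell-like cells (123, with Il17a and Trdc) 15.9%. The highest value was 23.0% in cluster 3 (Nkg7, Cd28, Trbc2), 178 cells with genes of both T and NK cells that stayed unnamed. Cluster 5 (Igkc, Ccr7, Flt3), also unnamed, followed at 17.9%, and neutrophil-like cells were far below all other clusters of at least 50 cells. The quartiles of single neutrophil-like cells, 1.45% and 2.75%, did not overlap those of the T cell-like cells, 12.4% and 18.5%. Neutrophil-like cells had shares of 17.6% in Co-Mac and 16.5% in VD-Mac, but culture, tissue and library differed together and cannot be told apart. The class was also not made up alike. Cluster 8 of hSTSG and the unnamed cluster 9 of VD-Mac, at 13.7%, both had Ngp, Camp and Ltf among their leading genes. Only the former was counted as neutrophil-like. Depth also moved with the share in hSTSG. With its cells in 4 equal groups by UMIs, the shallowest had 4.52% and the deepest 14.2%, and the part of depth in the differences between clusters was not tested.

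**Figure D2:**
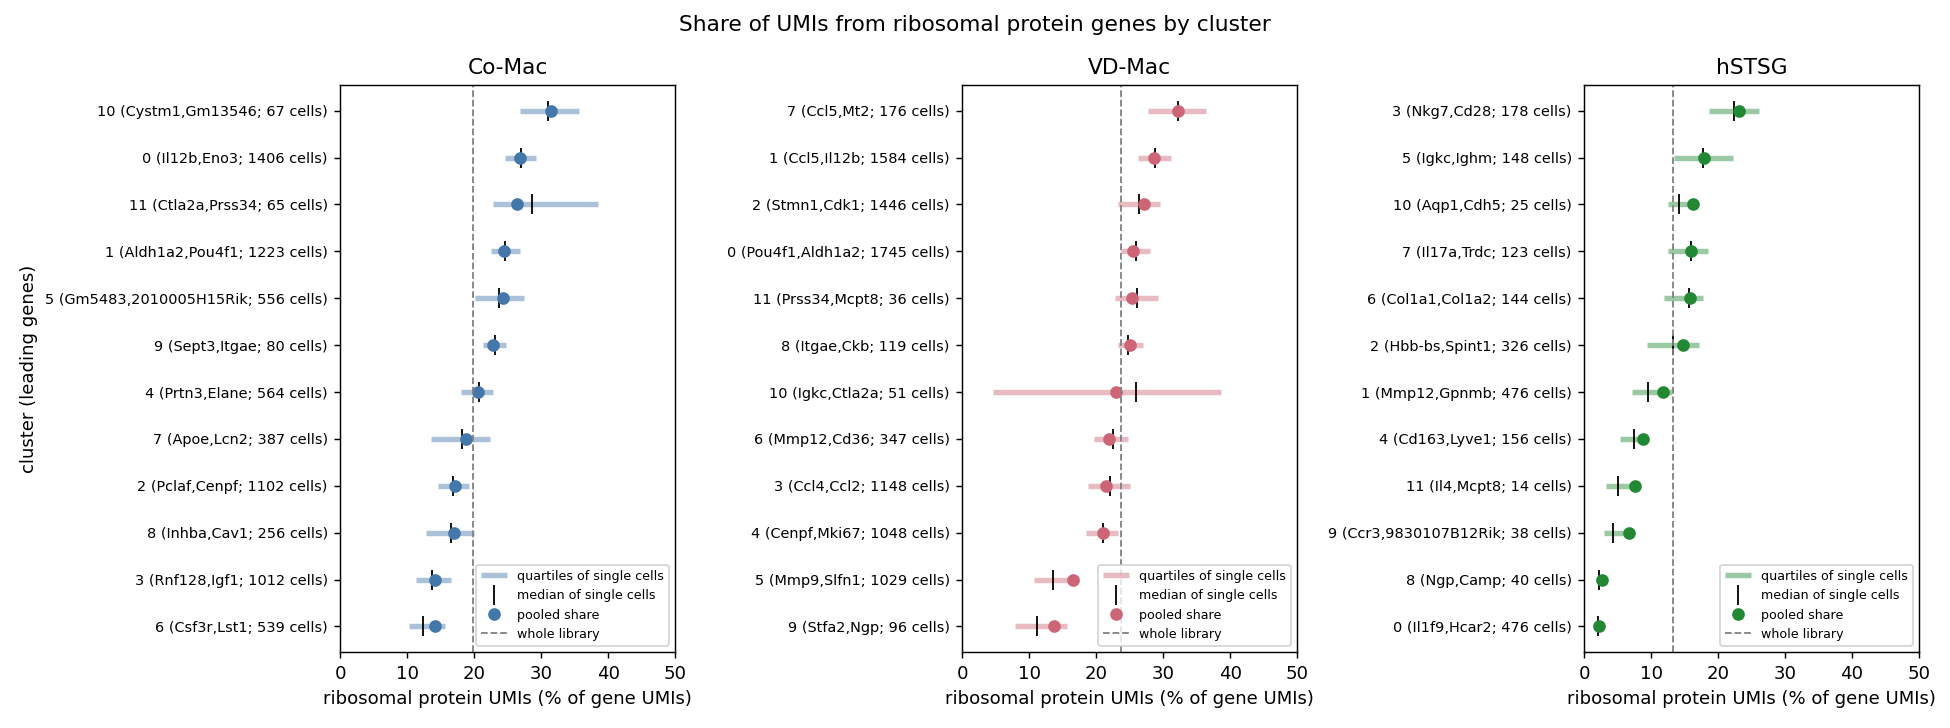
Share of gene UMIs from ribosomal protein genes in each cluster of the 3 libraries, with the pooled share (points), the median (ticks) and quartiles (bars) of single cells, and the whole library (dashed line). Clusters are given by number, leading genes and cells. In hSTSG the neutrophil-like clusters 0 and 8 lie at 2.19% and 2.57%, and cluster 3 lies highest at 23.0%.

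Within named classes found in both cultures with at least 50 cells, the direction differed. Macrophage-like cells (cluster 3 in each culture, 1012 and 1148 cells) had 14.1% in Co-Mac and 21.4% in VD-Mac, a 1.51-fold difference (1.511 to 1.516). Of their 79 members with at least 10 CPM, 73 were at least 1.2-fold higher, beside 24.5% of all genes. The median depth was 20030 UMIs in Co-Mac and 14870.5 in VD-Mac, and its part in the difference was not tested. Only Fn1 was among the leading genes of both macrophage-like clusters. Igf1, C1qa, Mrc1 and Mmp12 were among those of the Co-Mac cluster, and Ccl2, Ccl3, Ccl4 and Il1a among those of the VD-Mac cluster. Whether these clusters hold the same kind of macrophage was not tested. Neutrophil-like cells (clusters 6 and 7 in Co-Mac with 926 cells, cluster 5 in VD-Mac with 1029) had 17.6% and 16.5%, a ratio of 0.935 (0.932 to 0.938). Of their 79 members, 1 was at least 1.2-fold higher, beside 39.4% of all genes. At least 1.2-fold lower were 13, for which the share of all genes is not given here. The members' median log2 ratio was -0.10, beside 0.18 for all genes. Above 0 were 14 members, while most of all genes were above 0, since their median was. The exact share of all genes above 0 is not given here. The 2 neutrophil-like clusters of Co-Mac differed between themselves, at 14.1% in cluster 6 and 18.8% in cluster 7 (Apoe, Lcn2, Chil3, S100a9). Apoe is a macrophage marker. In cluster 7, 7 of 12 macrophage markers and 9 of 10 neutrophil markers were above 0, with mean log2 ratios to the rest of the library of -0.02 and 1.63. When VD-Mac cluster 5 was set against cluster 6 alone, its closest match, the ratio was 1.17, so the direction in neutrophil-like cells depends on which clusters are compared. The VD-Mac macrophage-like name was itself lost at resolution 0.8, with 30 components, with ribosomal protein genes kept among the features and with both cultures clustered together. In the clusters that then held most of these cells, the ratio was between 1.42 and 1.53. It was 1.33 when cycling markers did not count against a name, a setting chosen, like the naming rule, after the data were seen.

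Because most cells lay in unnamed clusters, clusters were also matched between the cultures. A pair was 2 clusters that were each other's best correlation over genes other than the members, and 9 pairs had at least 50 cells in each culture. This matching was chosen after the clusters were seen. The share was higher in VD-Mac in all 9 pairs, with a median ratio of 1.12, whereas a pair of basophil or mast cell-like clusters, left out because VD-Mac had only 36 such cells, had a ratio of 0.961 (0.954 to 0.968). The Co-Mac cluster of that pair also had B lineage genes such as Igkc and Cd79a among its leading genes, and the VD-Mac cluster did not.

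The macrophage-like pair, with only Fn1 leading in both cultures, had the largest ratio of the 9. Next, Co-Mac cluster 8 and VD-Mac cluster 6 (both with Cd36 and Gpnmb, a phagocyte protein) had 16.9% and 21.9%, a ratio of 1.296. There 60 of 80 members were at least 1.2-fold higher, beside 23.5% of all genes. The cycling clusters 2 and 4, led by Top2a and Mki67, had 17.1% and 21.0%, a ratio of 1.23, with 53 of 79 members, beside 18.5%. This pair mixed cell types, since neutrophil precursor markers had a mean log2 ratio to the rest of the library of -1.95 in Co-Mac cluster 2 and of 1.89 in VD-Mac cluster 4. Neutrophil-like clusters 6 and 5 had 14.1% and 16.5%, with 29 of 79 members, beside 20.6%.

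Pairs with high shares in Co-Mac had smaller ratios, from 1.02 to 1.12. Clusters 0 and 1 (Il12b, Ccl5) had 26.8% and 28.6%, a ratio of 1.07, with 2 of 80 members at least 1.2-fold higher, beside 29.9%. Clusters 1 and 0 (Aldh1a2, Pou4f1) had 24.4% and 25.5%, a ratio of 1.05, with 0 of 80, beside 22.7%. In these abundant cells the members' counts past 1.2-fold were below the share of all genes. Above 0, however, were 64 and 62 of the 80 members, beside 63.5% and 54.9% of all genes. Clusters 9 and 8 (Itgae, Clec9a) had 22.8% and 25.0%, a ratio of 1.09, with 10 of 79, beside 33.6%. The low-mitochondrial clusters 5 and 2 had 24.3% and 27.2%, a ratio of 1.12, with 18 of 79, beside 29.6%, and clusters 10 and 7 had 31.5% and 32.2%, a ratio of 1.02, with 2 of 81, beside 39.9%. The 4 pairs with the lowest shares in Co-Mac had the 4 highest ratios, a description in which the Co-Mac share enters both measures.

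**Figure D3:**
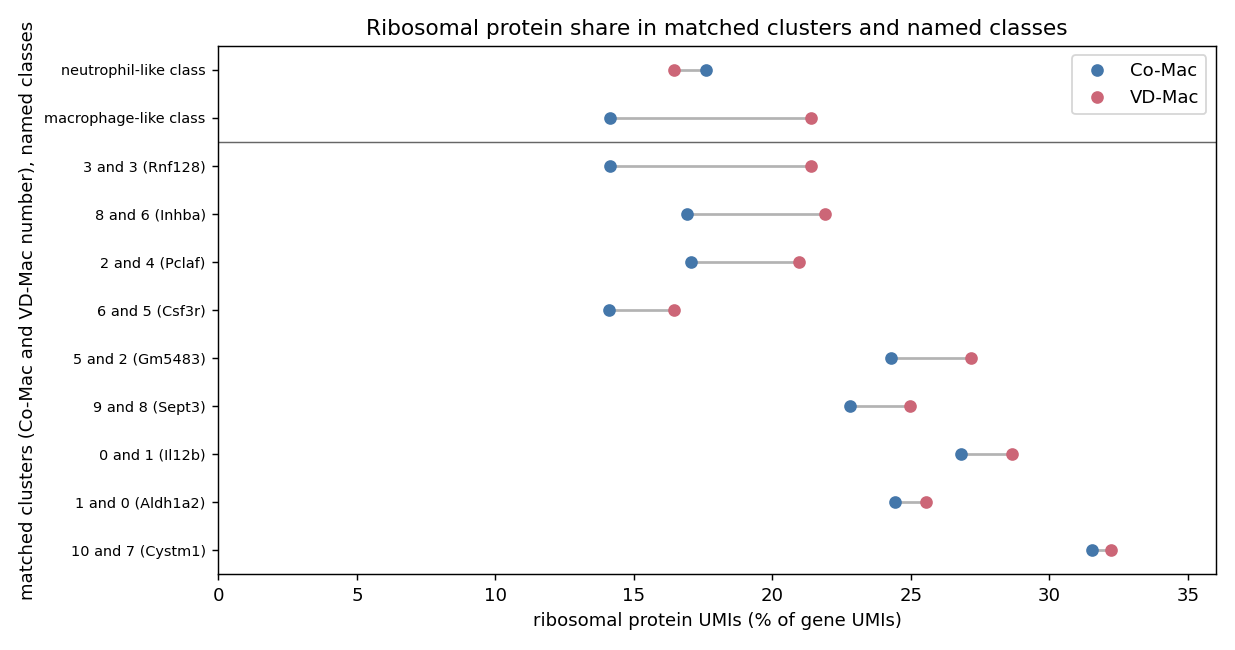
Ribosomal protein share of gene UMIs in Co-Mac and VD-Mac, 1 row per pair of matched clusters (Co-Mac number, VD-Mac number, first leading gene in Co-Mac) and, above the line, per named class. VD-Mac lies to the right in all 9 pairs, from 1.02-fold in clusters 10 and 7 to 1.51-fold in clusters 3 and 3, but to the left in the neutrophil-like class.

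The paired clusters held 87.0% of the UMIs of Co-Mac and 98.6% of those of VD-Mac. Over these, VD-Mac had 23.8% and Co-Mac 19.7%. With each pair weighted by its UMIs in Co-Mac, VD-Mac would have 23.3%, which is 1.19-fold, beside 1.21-fold with its own make-up. Weighting by pair thus moved the ratio little. It leaves out the unmatched clusters of Co-Mac, mainly 4 and 7. Nor does it reach the mixed cell types within the cycling pair or any difference in kind within the macrophage-like pair. Among the 80 members with at least 10 CPM, 48 were higher in VD-Mac in every one of the 9 pairs, beside 7.11% of all genes, and 2, Rps27l and Rpl3l, were lower in every one, beside 3.82%.

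Members differed in balance, the share that each took of all member UMIs. Over the 31 clusters with at least 50 cells, and among the 79 members with at least 50 CPM in a culture, Rps27 had the widest range, 3.62 on the log2 scale. It made up 6.87% of member UMIs in the neutrophil-like cluster 0 of hSTSG and 0.558% in cluster 4 of Co-Mac. Rpl7l1 ranged over 3.51, though its counts at both ends were small, with 22 UMIs in cluster 0 of hSTSG and 9 in cluster 10 of Co-Mac. Rps18 ranged over 3.30 and had its lowest share, 0.215% from 54 UMIs, in cluster 0 of hSTSG. Within that cluster Rps27 therefore stood far above Rps18, at 1503 CPM (1433 to 1576) beside 47.1 (35.4 to 61.5). Over the whole of hSTSG Rps27 was also the more abundant, at 2488 CPM beside 1189, whereas over the whole of Co-Mac and of VD-Mac Rps18 was. Rps27l ranged over 3.26, from 1.02% in the neutrophil-like cluster 6 of Co-Mac to 0.106% in cluster 3 of hSTSG. Rpl13a ranged over 3.14, from 0.343% in the T cell-like cluster of hSTSG to 0.0389% in cluster 0 of VD-Mac.

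The most abundant members in hSTSG were Rps29 at 4764 CPM (3137 in Co-Mac and 3706 in VD-Mac), Rpl41 at 4709 (5024 and 5638), Rpl37a at 3849 (2938 and 3663), Rplp1 at 3731 and Rps24 at 3077 (5232 and 6252). Rps29 and Rpl37a were higher there than in either culture, although the share of all members was lowest in hSTSG. Rpl41 and Rps24 were highest in VD-Mac.

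The members' share sets a limit on what all other genes can take, so it enters the scaling of every gene. Over the 7652 other genes with at least 10 CPM, the median log2 ratio, VD-Mac over Co-Mac, was -0.10 when CPM was taken over all genes. It was -0.03 when the members were left out of the total, a shift of 0.07, and -0.00 under median-of-ratios scaling, a shift of 0.10. At least 2-fold higher and lower were 160 and 315 other genes under CPM, 187 and 274 without the members and 193 and 260 under median-of-ratios. Of the genes past 1.2-fold, 33.7% were higher under CPM, 44.4% without the members and 48.8% under median-of-ratios. Leaving out 82 genes thus moved the balance of small differences by over 10 percentage points, while 2-fold counts moved less. The members' own median was 0.29, 0.36 and 0.39 in the same order, above 0 under each scaling. At least 1.2-fold higher were 49, 59 and 63 of the 80, beside 1274, 1613 and 1771 of the 7652 other genes. Both counts thus rose with the scaling.

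In macrophage-like cells the shift without the members was 0.12, and 43.2% of other genes past 1.2-fold were higher under CPM, beside 59.8% without the members and 49.3% under median-of-ratios. Without the members, but not under median-of-ratios, the majority of small differences there turned from lower to higher. In hSTSG, where a class was set against all other cells, the shift was 0.05 for T cell-like and for fibroblast-like cells. It fell by 0.06 on the log2 scale for macrophage-like cells and by 0.18 for neutrophil-like cells. By construction, the sign depends on whether the class has a larger or smaller member share than the rest. Median-of-ratios scaling shifted the median by -0.29 for T cell-like, 0.23 for fibroblast-like and 1.35 for neutrophil-like cells. Levels of single genes in these classes thus depend far more on that choice. For macrophage-like cells it shifted the median by 0.07, close in size to the -0.06 without the members and opposite in sign.

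Other genes of the pathway did not all lie on the same side. The 5 other ribosomal proteins were all higher in VD-Mac, beside 39.0% of all genes, and 3 of them were at least 1.2-fold higher, beside 17.1%. Their median log2 ratio was 0.28. Fau, a fusion of a ubiquitin-like protein with a small subunit protein, had the highest ratio among them, at 5095 CPM in Co-Mac, 6803 in VD-Mac and 3139 in hSTSG. Rpsa, the laminin receptor-like small subunit protein, stood at 6992, 8486 and 1953 CPM. Rack1, a scaffold on the small subunit, had 1520, 1693 and 1182 CPM, and Rpl36al 261, 268 and 254. Rpl36al was nearly level over the 3 libraries.

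Of 16 other genes listed as having TOP mRNAs, most of them translation factors, 7 were at least 1.2-fold higher and 2 at least 1.2-fold lower, beside 17.1% and 32.4% of all genes, with a median of 0.20. Gas5 was not analysed here. Pabpc1, which binds poly(A) tails, stood at 633, 1027 and 963 CPM in Co-Mac, VD-Mac and hSTSG. Eif3f stood at 507, 675 and 250 CPM, and Eef1a1, the main elongation factor, at 3767, 4973 and 3469. These 3 had the highest ratios of the list, while Eef1g (508, 356 and 364 CPM), Nap1l1, a histone chaperone (469, 341 and 203), and Eif2s3x (88.1, 75.7 and 85.2) had the lowest.

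Ribosome biogenesis genes, which make and process rRNA and assemble subunits, lay the other way. Of 33 with at least 10 CPM, 31 were at least 1.2-fold lower in VD-Mac and 0 higher, beside 32.4% and 17.1% of all genes, with a median log2 ratio of -0.70, and 2, Tma16 and Dkc1, were at least 2-fold lower, a share near the 4.07% of all genes. Among genes with at least 50 CPM in a culture the lowest ratios were those of Tma16, Nop58 and Nolc1. Tma16 stood at 172 CPM in Co-Mac, 76.5 in VD-Mac and 18.2 in hSTSG. Nop58, of the box C/D complex, stood at 69.8, 35.99 and 60.7 CPM, and Nolc1 at 61.2, 31.6 and 30.9. Dkc1, the pseudouridine synthase of rRNA, stood at 40.6, 19.7 and 9.58 CPM. Within the matched clusters this did not hold throughout. Biogenesis genes took a larger share of UMIs in VD-Mac in 3 of the 9 pairs, with 0.148% and 0.176% in clusters 0 and 1, 0.178% and 0.190% in clusters 1 and 0, and 0.170% and 0.180% in clusters 10 and 7. Macrophage-like cells were close, at 0.283% and 0.270%, and the cycling clusters 2 and 4 stood at 0.386% and 0.315%. The highest share, 0.678%, was in the neutrophil precursor-like cluster 4 of Co-Mac, which had no match in VD-Mac, and the part of make-up in the lower library levels was not tested. The highest ratios with at least 50 CPM were those of Nop10 (143 and 158 CPM in the cultures), Npm1 (1095 and 1046) and Ncl (375 and 255). Only Nop10 of the 33 was above 0.

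Of 16 genes of mTORC1 and of repressors of TOP translation, 12 had at least 10 CPM. Of these, 4 (Akt1s1, Depdc5, Rptor and Tsc2) were at least 1.2-fold higher and 3 (Larp1, Rheb and Sesn2) at least 1.2-fold lower, beside 17.1% and 32.4% of all genes, with a median of -0.04. Larp1, which binds TOP mRNAs, stood at 79.7 CPM in Co-Mac, 48.1 in VD-Mac and 78.3 in hSTSG. Rheb, the activator of mTORC1, stood at 140, 98.1 and 111 CPM. Eif4ebp1 (76.5, 65.4 and 73.3 CPM) and Eif4ebp2 (68.5, 72.0 and 62.6) differed less. Translation itself was not measured. Mitochondrial ribosomal proteins, which serve a separate ribosome, had a median log2 ratio of -0.07 over 76 genes, with 4 at least 1.2-fold higher and 12 at least 1.2-fold lower, fewer in each direction than the 17.1% and 32.4% of all genes. Mrps28, at 32.0 and 14.9 CPM in the cultures, was more than 2-fold lower, 1 of 76 beside 4.07% of all genes. Mrps6, close to 2-fold higher, did not pass with 1 CPM added to both levels. Among those with at least 50 CPM the extremes were Mrps6 (33.1 and 66.2 CPM in the cultures), Mrpl24 (99.4 and 133) and Mrpl34 (112 and 143) on the high side, and Mrpl54 (134 and 92.6), Mrpl12 (145 and 119) and Mrpl41 (74.6 and 61.8) on the low side.

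Other abundant transcripts share the same total. Of 16, 2 were at least 1.2-fold higher and 7 at least 1.2-fold lower, beside 17.1% and 32.4% of all genes, and together they took 11.8% of UMIs in Co-Mac and 11.1% in VD-Mac. The higher ones were Malat1 (9106.5 and 14509 CPM) and B2m (1355 and 1892). Lyz2, the lysozyme of myeloid cells, was more than 2-fold lower, at 6333 and 3070 CPM, as was Apoe at 26.9 and 9.32. Also lower were Actb (11538 and 7682), Tmsb10 (1401 and 963), Fth1 (20902 and 15091), Ftl1 (14428 and 11147) and Ctsd (943 and 779). The remainder differed less: Tmsb4x (36926 and 41641), S100a8 (3044 and 3561), S100a9 (2031 and 2337), Spp1 (520 and 586), Gapdh (1746 and 1684), Cd74 (6743 and 5811) and Ctsb (479 and 412).

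Start site sequences were taken from RefSeq (GRCm38.p6), where 62 of the 82 members were found. A run of at least 5 C or T that covered or touched the annotated start was present in 35.5% of these members, beside 18.6% of all 27025 genes of the table and 19.4% of the genes with at least 10 CPM in a culture. Annotated starts can lie a few bases from the true one, so a missing run says nothing of the mRNA. The letters CTTTCC within 15 bases of the start, read on the strand of the gene only, were found in 16.1% of members and 1.67% of all genes. The letters CGGAAG or their complement CTTCCG, as in sites of ETS factors, were found in the 300 bases around the start in 66.1% of members, 18.8% of all genes and 39.9% of the genes with at least 10 CPM. Both searches were chosen after sequences had been seen, and such matches can overlap the C or T runs. A match does not show a site in use. The windows that follow, from 8 bases before the start to 16 bases from it, are shown for Rps27, Rps18, Rps9 and Rplp2, which have such a run, and for the paralog Rps27l, which has a run of 2, with the run in capitals.
Rps27 (chr3:90213633-90213656, minus strand): ctttcgCTCCTTTCCggcggtgac
Rps18 (chr17:33955650-33955673, minus strand): cttccgCTCTCTCTTCCacaggag
Rps9 (chr7:3704033-3704056, plus strand): tgTCTCTCTTTgtctcgggcctga
Rplp2 (chr7:141447643-141447666, plus strand): gcgTCTTCCTTTCgccgccggacg
Rps27l (chr9:66946078-66946101, plus strand): tccccgCCgcctctatcccggaag
The run measured 9 bases in Rps27, 11 in Rps18, 9 in Rps9 and 10 in Rplp2. A second annotated start of Rps27l had no C or T run. Other members with high ratios between the cultures had no such run, with 3 bases in Rps7, 1 in Rpl10a and 0 in Rpl37, and no relation between run and ratio was tested.

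In the mouse genome (GRCm38, GENCODE), all 82 members matched by gene identifier. Rps7 (ENSMUSG00000061477) lies at chr12:28630854-28635953 on the minus strand, Rps27 (ENSMUSG00000090733) at chr3:90212522-90213651 on the minus strand and Rps27l (ENSMUSG00000036781) at chr9:66946086-66949516 on the plus strand.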

How the data were processed

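The deposited values were counts, whole and not normalized, of the UMIs of each gene in each droplet of 10x 3′ libraries. The file headers name Cell Ranger 3.1.0. The methods name a human reference and the submitters' processing notes mm9, but the rows are mouse Ensembl genes, so no coordinate was taken from the files. The deposited counts were filtered here as the report states. Doublets were kept and no caller was run. CPM and shares were computed on summed cells, with 1 CPM added for counts of genes past a fold and for medians, and none for the ratios given with intervals. Intervals were Poisson, Clopper-Pearson and conditional binomial. Clusters were made per library with Seurat 5.3.0 in R 4.3.3 (10000 scale, 2000 features without members, 15 components, 15 neighbors, resolution 0.5), where the submitters' notes name Seurat 3.1.1.

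Clusters were named from fixed markers by the highest mean log2 ratio (at least 0.5, 3 markers in at least 10% of cells, most markers above 0), unless another set or the cycling markers had more genes among the 10 leading genes. This rule, including the use of cycling markers, was settled after clusters and their shares were seen. Classes were planned as the units within cell types. Matched clusters were added later because most cells were unnamed, and they also carry the make-up comparison.

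Named genes were the 5 highest and 5 lowest ratios among members with at least 50 CPM in a culture, the 5 most abundant in hSTSG, the 5 widest in balance, stalk genes, paralogs, members under 10 CPM and, per other list, the 3 highest and 3 lowest with at least 50 CPM and all other abundant transcripts. Others, named for a count of 5 or fewer, were chosen after their values were seen. Some genes that the rule names are not reported here. Members and lists were chosen with earlier results of these data known. The comparison was tested on simulated data. Python 3.11.15, numpy 2.4.6, scipy 1.17.1, pandas 2.3.3 and matplotlib 3.10.9 were used. Sample tags were not used.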

Additional observations from a re-analysis of the deposited data

Results flagged for a closer look

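The share of ribosomal protein UMIs within macrophage-like cells was 1.51-fold in VD-Mac over Co-Mac, while within neutrophil-like cells the ratio was 0.935. It was picked out because the 2 classes lay on opposite sides of 1 under the same comparison. The difference between them was not tested, since there was 1 library per condition, and in neutrophil-like cells the side depended on the clusters compared. The macrophage-like clusters of the cultures shared only Fn1 among their leading genes.

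The hSTSG library also held 1195935 UMIs of sample tags, which no comparison used, beside 0 in Co-Mac and 0 in VD-Mac. No map from tags to mice was found in the sources used here.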

How the results depend on the processing

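No paired analysis was possible because each condition had 1 library. VD-Mac kept the higher library share, and the members a median above 0, under every alternative run. Shares in Co-Mac, VD-Mac and hSTSG were 19.7%, 23.4% and 12.7% with all barcodes, 19.8%, 23.8% and 13.4% in cells with at least 2000 UMIs, 20.3%, 24.1% and 12.9% without the top 5% of cells by UMIs, 21.0%, 25.3% and 13.8% with ribosomal proteins outside the symbol rule added, 20.5%, 23.6% and 10.7% as means of single cells and 21.0%, 25.3% and 13.8% without mitochondrial genes. A 5% mitochondrial limit gave 21.6% and 25.0% in the cultures, a minimum of 300 UMIs 12.98% in hSTSG, and leaving out low-mitochondrial clusters, chosen after seeing the data, 19.7% and 23.6%. In the same order of settings the ratio was 1.19, 1.201, 1.19, 1.204, 1.15 and 1.21, then 1.15 with the 5% limit, 1.199 without those clusters, and 1.19 with the make-up of Co-Mac. The members' median log2 ratio was 0.27 with all barcodes, 0.24 with the 5% limit, 0.29 from 2000 UMIs, 0.27 without the top 5%, 0.29 without low-mitochondrial clusters, 0.36 without members in the total, 0.39 under median-of-ratios, 0.28 without a minimum and 0.29 with 50 CPM. The count of members 1.2-fold higher was 25 with the 5% limit, beside 49, with no share of all genes given for that limit. The cause was not tested.

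In hSTSG, neutrophil-like cells had 2.33% with 30 components and 2.23% as a mean of cells, and T cell-like cells 15.6% as a mean. Within macrophage-like cells the ratio was 1.503 at resolution 0.3, 1.55 as a mean and 1.55 without the top 5%. With names or mappings chosen after seeing the data it was 1.33 when cycling markers did not count, and, in clusters holding most of the class, 1.42 at resolution 0.8 (where they held 58.4% of the VD-Mac cells of the class), 1.53 with 30 components and 1.51 with both cultures together. Within neutrophil-like cells it was 0.895 at resolution 0.3, 0.900 at 0.8, 0.939 with 30 components, 0.955 as a mean, 0.907 with both cultures together and, reversed, 1.17 for matched clusters, which leave out Co-Mac cluster 7. The shift of other genes without the members was 0.0722 with 50 CPM and 0.123 in macrophage-like cells, and under median-of-ratios 0.100 and 0.0462. Genes past 2-fold were 475, 461 and 453 under CPM, without members and under median-of-ratios, 211, 209 and 208 with 50 CPM, where fewer genes were tested, and 781, 798 and 777 in macrophage-like cells. Depth per cell differed between clusters, and 1 library per condition limits every comparison.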
